A study of Gallus gallus with 20 samples.

Results

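The mitochondrial genome of the chicken was described through every feature that the deposited gene tables place on chromosome MT of the galGal4 assembly, 37 of 17108 genes. Length divided them into 14 features of at least 200 nt, which are 12 protein genes and 2 ribosomal RNAs, and 23 shorter features, which are 22 tRNA loci and the protein gene MT-ATP8. RNA was measured in liver and in pectoralis major, the breast muscle, of male Ross 708 broilers at post-hatch day 35. Birds had eaten an L-methionine-deficient diet or a control diet with L-methionine between weeks 3 and 5 of age. The groups were deficient liver, control liver, deficient breast and control breast, with 5 libraries each, and nothing in the labels gives a genetic difference between the birds. The labels name 5 birds per diet, so the 5 breast and 5 liver libraries of a diet share birds, but they do not say which libraries came from one bird. Comparisons between the tissues treat the libraries as independent.

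Animal mitochondrial genomes encode a small set of hydrophobic subunits of the respiratory chain and of ATP synthase, together with the rRNAs and tRNAs that translate them. Both strands are transcribed as long precursors, which are cut mainly at the tRNAs that separate the other genes, so levels of single RNAs also depend on how each is processed and how long it lasts. All other subunits, and all proteins that transcribe, process and translate mitochondrial RNA, are nuclear genes. Methionine enters mitochondrial translation as the starting amino acid, in its formylated form.

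The members are given by the symbols of the files, with 3 exceptions. The gene listed under the symbol of a microRNA, gga-mir-3527 (galGal4 chromosome MT, 8331 to 9014, 684 nt), has the place and the length of COX2 in the RefSeq gene table and is called COX2 here. The 2 features called small rRNA (1297 to 2272, 976 nt) and large rRNA (2346 to 3966, 1621 nt) carry no symbol and were named in the same way, and so were the tRNA loci as a class. All 37 features follow the order of that table, all 12 symbols that can be set against it match, and 36 of 37 lengths are within 3 nt. The exception is a 135-nt tRNA locus (8124 to 8258), 69 bases of which lie on the end of MT-CO1. Smaller overlaps of 10 nt join MT-ATP8 to ATP6 and of 7 nt ND4L to MT-ND4, and reads in them could not be assigned to one gene with certainty. The sources do not say whether reads were counted by strand, so reads of ND6 (16184 to 16705), the protein gene on the other strand, and reads antisense to it cannot be told apart.

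Values are FPKM, which the authors scaled for feature length and sequencing depth. Levels are compared between genes as the deposited FPKM give them, and no separate measure of those levels was at hand. The upper bound of the deposited interval lay at a different fraction of the FPKM for each gene, with medians from 0.422 for ND4L to 1.03 for MT-ND2, and the reason is not given in the sources used here. Depth over the members was high. The median coverage over the 20 libraries lay between 4352 reads deep for ND6 and 27617 for ATP6 among the long protein genes, and was 1902 for the small and 533 for the large rRNA. Read counts are not given, and the spread between libraries is used as the error throughout. The assigned bases per library lay between 1.40 and 2.75 gigabases. Correlations were taken over the 9181 genes with a mean FPKM of at least 1 in both tissues, on log2(scaled FPKM + 1). Over these genes, which share their libraries, the lowest Pearson r between 2 libraries of a group was 0.941 and the highest 0.978. Skeletal myocyte markers (9 of 15 found) summed to between 0.598 and 2.73 FPKM in 9 liver libraries and to 527 FPKM in liver control 1, against 63714 to 114650 FPKM in breast.

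The short features were almost all empty. Of the 23, 19 were listed at 0 in all 20 libraries and 2, MT-ATP8 and the 135-nt locus, were above 0 in all 20. The remaining 2 were tRNA loci with a value in 3 liver libraries. A 71-nt locus between MT-ND1 and MT-ND2 (5102 to 5172) was at 709048 FPKM in liver control 4 and at 0 in the other 19 libraries. A 76-nt locus that starts on the last 2 bases of MT-ND2 (6280 to 6355) was at 169016 FPKM in liver deficient 1, at 40264 in liver control 3 and at 0 in the other 18 libraries. The intervals that the authors' files give for these values start at 0 and reach 2127150, 507048 and 201323 FPKM, 3 to 5 times the value. In liver control 4 and liver deficient 1 the tRNA locus was far above every other member, and in all 3 libraries its own interval holds 0.

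The mitochondrial share of the FPKM sum stood apart in liver control 4 and liver deficient 1. The share was 36.1% in liver deficient 1 and between 16.1% and 18.9% in the other deficient liver libraries, and 63.1% in liver control 4 and between 14.3% and 22.1% in the other control liver libraries. In breast it was between 15.9% and 22.9% on the deficient diet and between 14.1% and 17.1% on the control diet. Among features of at least 200 nt alone, the mitochondrial share was 13.6% ± 0.809 in deficient liver and 11.9% ± 1.30 in control liver, and 13.6% ± 2.42 in deficient breast and 11.8% ± 0.770 in control breast (SD, n = 5 each). The ranges of the diets overlap in both tissues, 12.2% to 14.4% against 10.1% to 13.5% in liver and 11.5% to 17.0% against 10.5% to 12.5% in breast.

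**Figure D1:**
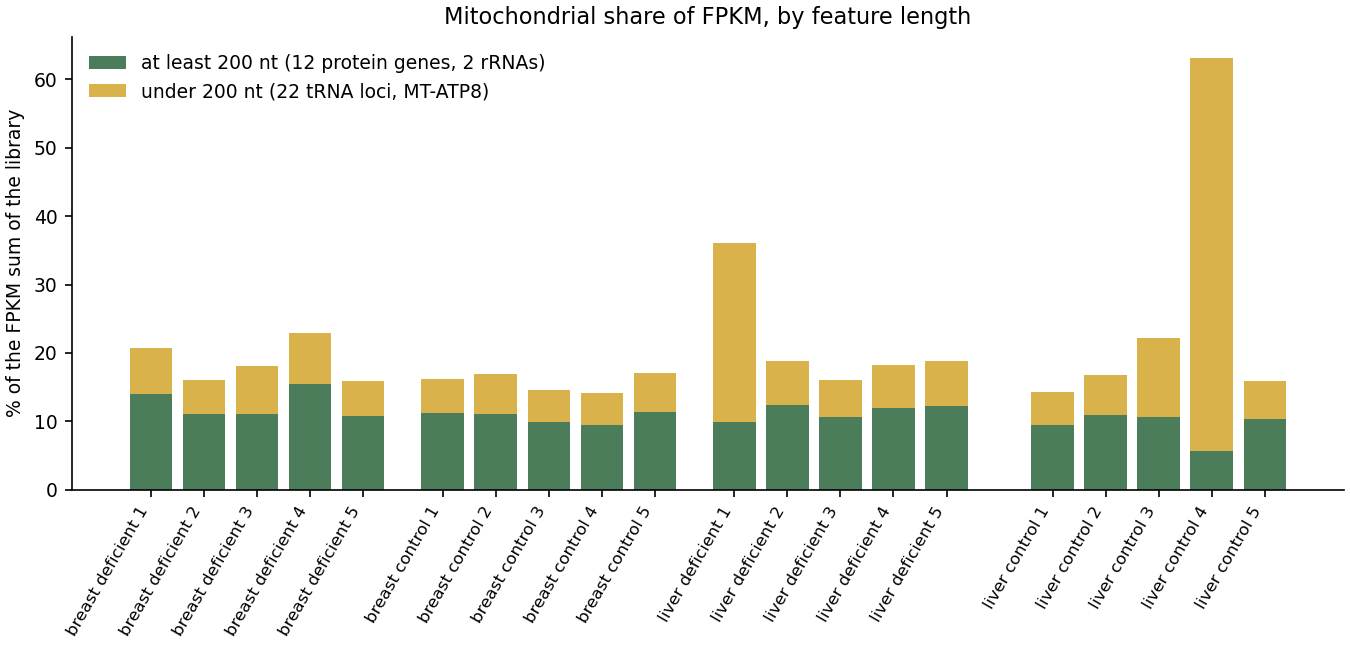
Mitochondrial share of the FPKM sum of each library in percent, with features of at least 200 nt below and shorter ones above in each bar. Liver deficient 1 at 36.1% and liver control 4 at 63.1% stand out through the short features, while the long ones make up between 5.62% and 15.4% of every library.

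The levels of the 14 long members kept much the same order in the 4 groups. ATP6, a subunit of the proton channel of ATP synthase, led in each group, with 12311 ± 923 FPKM in deficient liver, 10493 ± 1444 in control liver, 13624 ± 3035 in deficient breast and 12752 ± 1075 in control breast (SD, n = 5 each). MT-CO1, COX2 and MT-CO3, the catalytic core of cytochrome c oxidase (complex IV), followed with group means between 9533 and 12058 FPKM. The ranges of neighbours among these 4 genes overlap in every group, so their order is not settled by these values. ATP6 was above MT-CO3 in 15 of 20 libraries by FPKM and by coverage, and in 0 of 20 by the upper bound of the deposited interval. That bound stood at a median of 0.61 of the FPKM for ATP6 and 1.03 for MT-CO3. The interval held the FPKM of either gene in 0 of 20 libraries, so its bound is no separate measure of level. Coverage comes from the same reads as the FPKM and is no separate measure either. MT-CYB, the cytochrome b of complex III, came next with means between 4511 and 6738 FPKM. It lay below all libraries of the gene ranked before it in 3 groups, and in deficient breast the ranges overlap.

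The 7 subunits of complex I, the NADH dehydrogenase, stood lowest among the protein genes, with group means between 1592 and 4954 FPKM. Neighbours among them overlap in every group. ND6 closed the list of protein genes in both breast groups and in control liver, and ND4L in deficient liver. The rRNAs, the structural RNAs of the mitochondrial ribosome, came last in every group. In deficient breast the ranges of ND6 and the small rRNA overlap, and in the other 3 groups all rRNA values lay below all protein genes. The small rRNA averaged 576 ± 192 FPKM in deficient liver, 520 ± 169 in control liver, 1064 ± 437 in deficient breast and 1163 ± 169 in control breast, and the large rRNA 207 ± 35.6, 180 ± 45.0, 263 ± 72.3 and 274 ± 38.6 FPKM in the same groups (SD, n = 5 each). What was removed or selected when the libraries were made is not given in the sources used here, so these rRNA values are levels in the libraries, not in the cells.

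Both rRNAs summed came to 1.05% ± 0.258 of the FPKM of the 12 protein genes in deficient liver and 1.10% ± 0.205 in control liver, and to 1.73% ± 0.469 in deficient breast and 2.06% ± 0.363 in control breast (SD, n = 5 each). Between the rRNAs the small one was the higher in every library, 2.74 ± 0.697 times the large one in deficient liver, 2.93 ± 0.788 in control liver, 4.03 ± 0.969 in deficient breast and 4.26 ± 0.450 in control breast. In FPKM the long mitochondrial protein genes stood above every nuclear subunit tested of their complexes. Those tested were 27 of 37 listed for complex I, 7 of 9 for III, 9 of 15 for IV and 11 for V. These are RNA levels in the libraries, not amounts of subunit protein. The median mitochondrial subunit of complex I was at 28.7 to 36.5 times the FPKM of the median nuclear one over the 4 groups, that of complex IV at 37.8 to 50.0 times, MT-CYB at 47.4 to 62.6 times the median nuclear subunit of complex III and ATP6 at 44.0 to 56.1 times that of complex V.

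**Figure D2:**
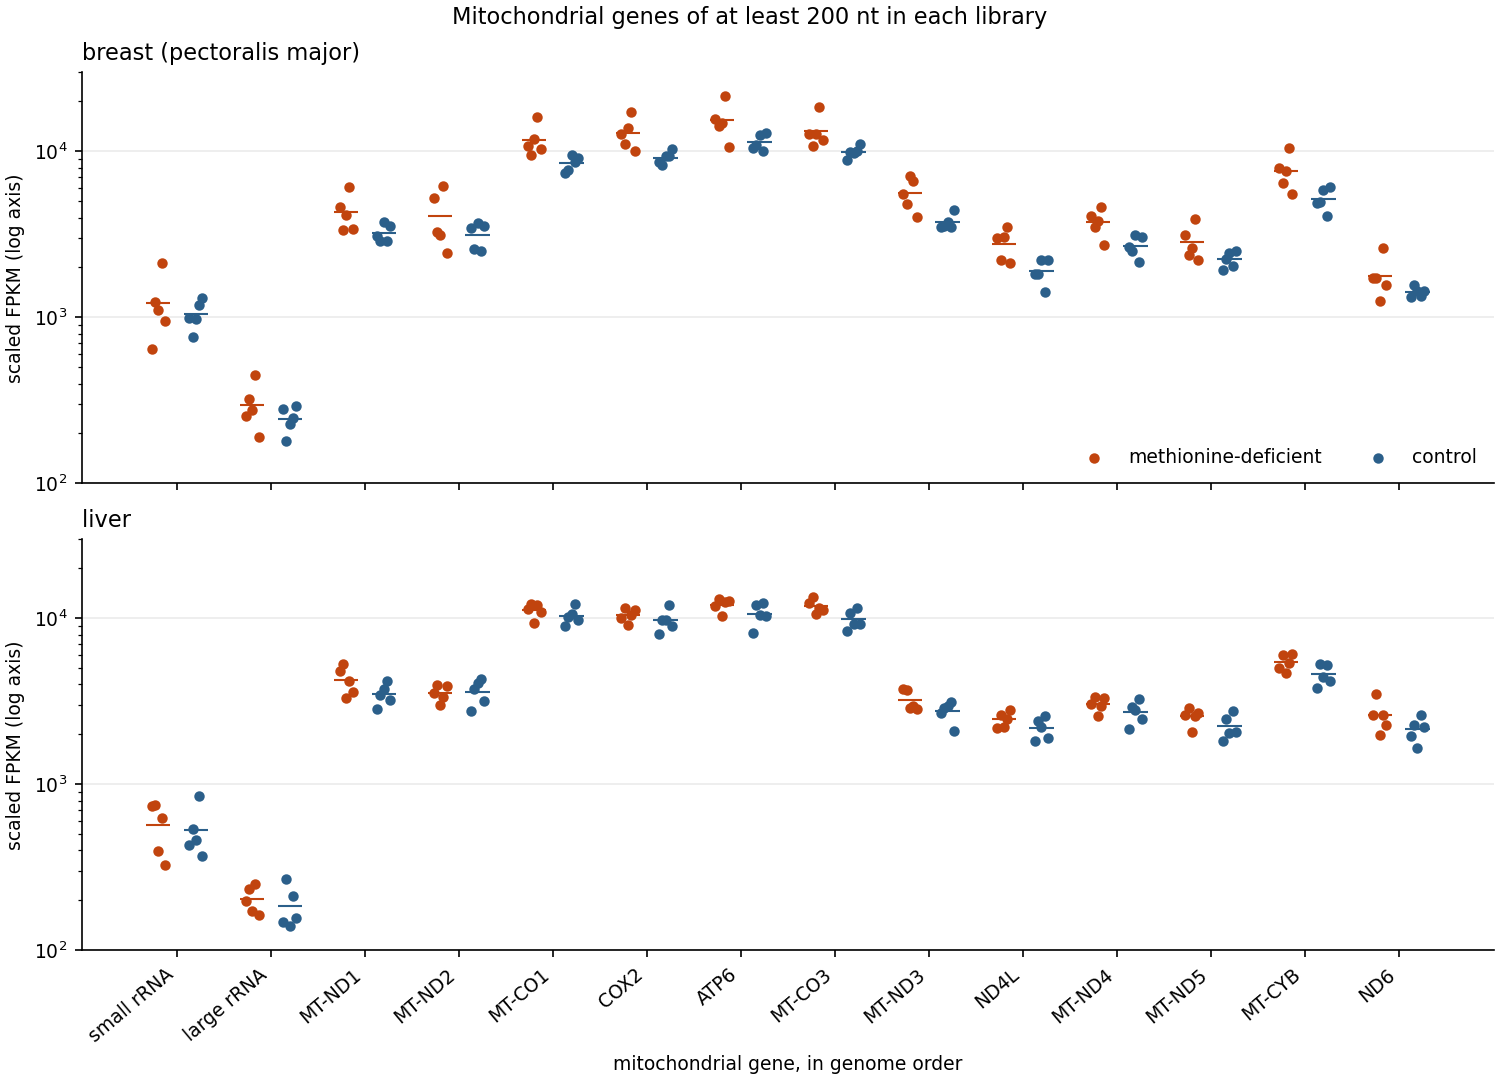
Scaled FPKM on a log axis for the 14 mitochondrial genes of at least 200 nt in genome order, with 5 libraries per group as points and the group mean as a bar, breast above and liver below. The genes of complexes IV and V sit near 10000 in all groups, the complex I genes between about 1263 and 7142, and the rRNAs lowest.

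The diet comparison in breast muscle asked which of these RNAs a methionine shortage alters. On the deficient diet 4 of the 14 long members were higher and 0 lower (limma, Benjamini-Hochberg adjusted p under 0.05 over 10182 genes), beside 28.0% of all genes, made up of 14.1% higher and 13.9% lower. All 14 had a log2 change above 0, with a median of 0.40 beside 0.02 over all genes tested, and 9 of 14 had an unadjusted p under 0.05 beside 40.6% of all genes. In either direction the share of members called is close to that of all genes. The 4 called are MT-ND3 and ND4L of complex I, MT-CYB of complex III and COX2 of complex IV. Each of these calls was lost in 5 to 8 of the 10 fits without 1 library, so they do not mark these genes off from the other members. Log2 changes are deficient minus control on the log2(scaled FPKM + 1) scale.

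MT-ND3 (10776 to 11126), a short membrane subunit of complex I, was at 5546, 4792, 7142, 6635 and 4028 scaled FPKM in deficient breast, against 3496, 3563, 3767, 3521 and 4427 in control breast. Deficient breast 5 lay inside the control range and the other 4 deficient libraries lay above all controls. The log2 change was 0.56 ± 0.16 (SE), with limma adjusted p = 0.0278.

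COX2, which takes electrons from cytochrome c, was at 12668, 11033, 13914, 17304 and 10041 scaled FPKM in deficient breast, against 8611, 8261, 9379, 9345 and 10307 in control breast. The groups overlap only in deficient breast 5 and control breast 5. The log2 change was 0.48 ± 0.15 (SE), with limma adjusted p = 0.0392.

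ND4L (11196 to 11492), which overlaps the start of MT-ND4, was at 3016, 2227, 3054, 3499 and 2117 scaled FPKM in deficient breast, against 1834, 1819, 2229, 1420 and 2212 in control breast. Deficient breast 2 and 5 lay inside the control range and the other 3 deficient libraries above it. The log2 change was 0.54 ± 0.18 (SE), with limma adjusted p = 0.0425.

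MT-CYB (14893 to 16035) was at 7977, 6426, 7617, 10491 and 5521 scaled FPKM in deficient breast, against 4900, 4953, 5824, 4097 and 6141 in control breast. Again deficient breast 5 alone lay inside the control range. The log2 change was 0.53 ± 0.18 (SE), with limma adjusted p = 0.0481.

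The other 8 protein genes of at least 200 nt were not called, with log2 changes between 0.28 for ND6 and 0.47 for MT-ND4. MT-CO1 and MT-ND4 were just past the threshold, with limma adjusted p = 0.0514 and 0.0523. The small rRNA was at 645, 1232, 1107, 2143 and 955 scaled FPKM in deficient breast, against 994, 759, 980, 1184 and 1307 in control breast, a log2 change of 0.13 ± 0.28 (SE, limma adjusted p = 0.750). The large rRNA was at 253, 321, 278, 448 and 191 scaled FPKM in deficient breast, against 281, 179, 227, 249 and 294 in control breast, a log2 change of 0.24 ± 0.22 (SE, limma adjusted p = 0.428). Both deficient ranges enclose or reach beyond the control range, and the test leaves the direction of the rRNAs undecided.

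MT-ATP8, the short partner of ATP6 in ATP synthase, was at 29425, 21014, 32596, 40491 and 19105 scaled FPKM in deficient breast, against 17220, 21024, 20927, 16711 and 23127 in control breast. Its log2 change was 0.48 ± 0.21 (SE, limma adjusted p = 0.108). The 135-nt tRNA locus was at 12204, 12574, 23850, 17748 and 13127 scaled FPKM in deficient breast, against 9725, 10802, 12449, 12606 and 12618 in control breast, a log2 change of 0.41 ± 0.19 (SE, limma adjusted p = 0.138). Neither was called, and both groups overlap in each.

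For none of the 16 members tested did the 5 deficient libraries all lie above the 5 controls, while this held for 8.89% of all genes tested and the opposite for 9.45%. Breast deficient 4 held the highest value of its group in 13 of the 14 long members and breast deficient 5 the lowest in 9 of 14. Without breast deficient 4 no member was called and the median log2 change of the 14 was 0.28, and no member was called without breast control 1, 2 or 4 or without breast deficient 3 either. Without breast deficient 5 the count was 6, without breast control 3 it was 2 and without breast deficient 1 it was 1. The calls over all genes moved too, from 2853 with all libraries to between 1839 and 2325 in the fits with no member called. They were 3158 without breast deficient 5, 2496 without breast control 3 and 2804 without breast deficient 1. The factors that scaled the libraries did not overlap between diets, 0.768 to 0.989 in deficient and 1.02 to 1.27 in control breast. With the FPKM as deposited no member was called, and the median log2 change was 0.07 beside -0.25 over all genes. Quantile normalization also left no call, with medians of 0.04 beside 0.04. It gives all libraries the same values by rank, and 6 to 10 of the 20 highest genes of each breast library were mitochondrial. A shared rise of such genes can be removed by it, so it cannot decide whether there was one. Of the 16 members tested, 5 turned negative without scaling (MT-ND2, MT-ND5, ND6 and both rRNAs) and 4 after quantile normalization.

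**Figure D3:**
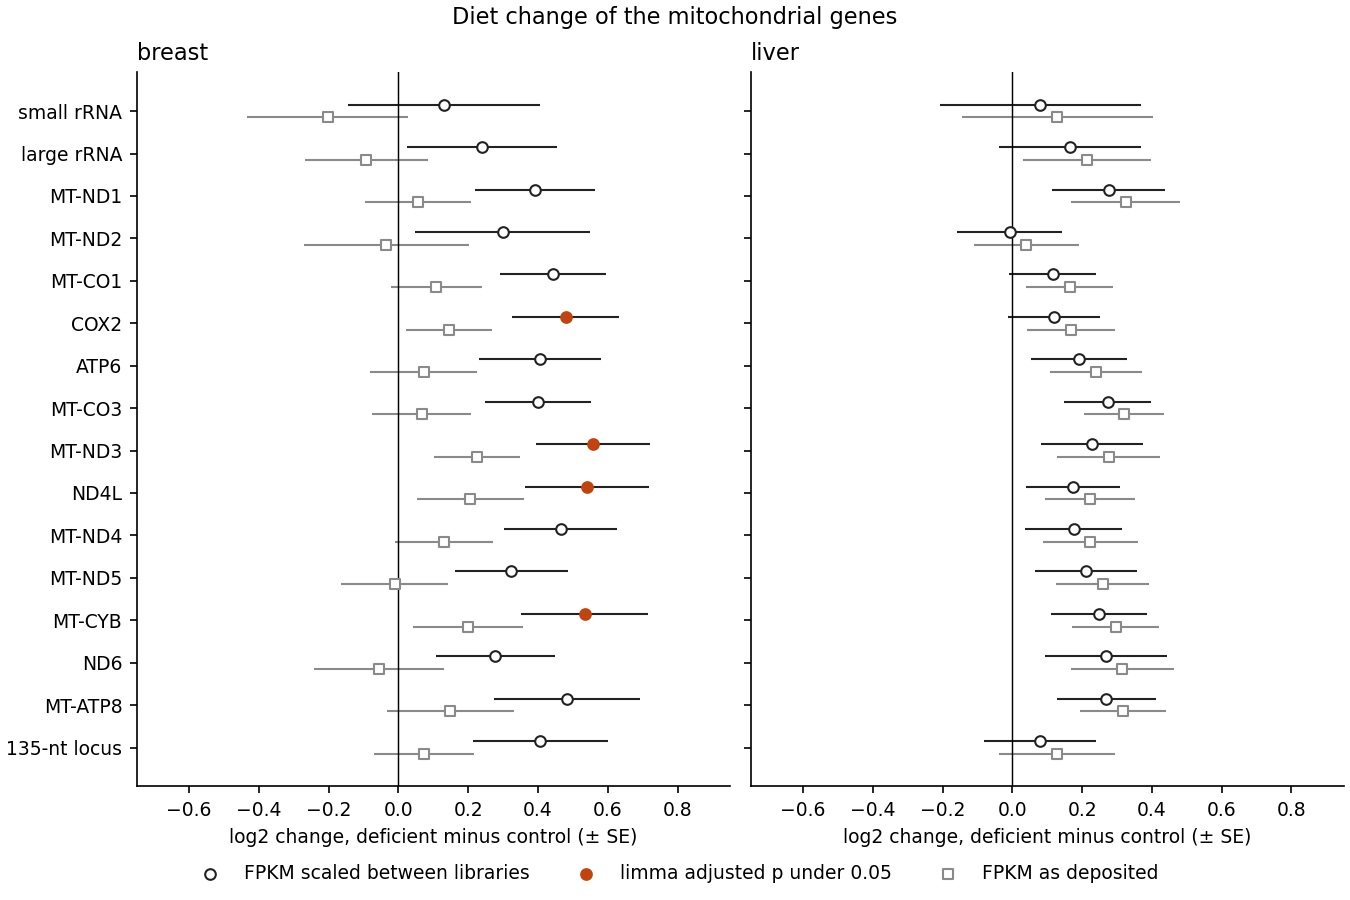
Log2 change, deficient minus control, with its SE for each mitochondrial gene tested in both tissues, from FPKM scaled between libraries (circles) and as deposited (squares); filled symbols passed a limma adjusted p under 0.05. In breast the 4 called genes lie between 0.48 and 0.56 and move to between 0.14 and 0.22 without scaling, and in liver no symbol is filled.

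Marker sums of macrophages and fibroblasts in the breast samples differed between the diets in the FPKM as deposited. The factors that scaled the libraries, all lower in deficient than in control breast, were not applied to the sums in this paragraph. Macrophage markers (11 of 13 found) summed to 732 to 1087 FPKM in deficient breast and 1932 to 2638 FPKM in control breast, and fibroblast markers (7 of 8) to 921 to 1728 FPKM against 2038 to 3173 FPKM. Hepatocyte markers (17 of 19) summed to 662 to 2590 FPKM in deficient breast and 2165 to 4081 FPKM in control breast, and skeletal myocyte markers to 63714 to 114650 FPKM against 63774 to 93960 FPKM. Endothelial (8 of 9), adipocyte (5 of 5) and erythroid (5 of 9) sums overlapped between the diets. Of these lists FGA alone was at 0 in all libraries of a breast group, control breast. In liver the hepatocyte marker ALB was listed at 0 in all 10 libraries, while the hepatocyte sum was between 24102 and 59808 FPKM. The part of these differences in the members' values was not tested, and in whole tissue fewer cells of a type and less RNA per cell cannot be told apart.

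The relative levels of the 12 long protein genes within a library do not depend on the scaling. Each gene was taken as a percent of their summed FPKM. MT-ND3 made up 6.57% ± 1.02 of that sum in deficient breast and 5.99% ± 0.262 in control breast, and MT-CYB 8.78% ± 0.332 in deficient and 8.24% ± 0.684 in control breast (SD, n = 5 each). COX2 made up 15.1% ± 0.626 in deficient and 14.7% ± 0.882 in control breast, and ND4L 3.24% ± 0.253 in deficient and 3.02% ± 0.335 in control breast. For each of these 4 genes the ranges of the diets overlap. The sum includes the gene itself, and a difference in these percentages was not tested. ND6 made up 2.08% ± 0.374 in deficient and 2.30% ± 0.232 in control breast, again with overlapping ranges.

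In liver the diet comparison called no member and no gene at all, 0.00% of 10189 tested (limma, adjusted p under 0.05). At an unadjusted p under 0.05 it found 0 of the 14 long members and 849 genes. Of the 14, 13 had a log2 change above 0, with a median of 0.18 beside 0.01 over all genes. MT-CO3 was at 12342, 13505, 10670, 11587 and 11287 scaled FPKM in deficient liver, against 8424, 10819, 9242, 11601 and 9246 in control liver, and is named here after its values were seen, as the member with the smallest p. Its log2 change was 0.27 ± 0.13 (SE, limma adjusted p = 0.608), and 2 control libraries reached the deficient range. No member was free of overlap on the scaled values, where 0.942% of all genes were higher and 0.923% lower without overlap. In the FPKM as deposited its 5 deficient libraries all lay above the 5 controls, as for 0.746% of all genes tested, with 0.667% the other way.

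The small rRNA was at 742, 751, 396, 626 and 329 scaled FPKM in deficient liver, against 431, 543, 464, 852 and 370 in control liver (log2 change 0.08 ± 0.29 SE, limma adjusted p = 0.966). The large rRNA was at 200, 235, 173, 250 and 163 scaled FPKM in deficient liver, against 147, 270, 140, 213 and 156 in control liver (0.17 ± 0.20 SE, limma adjusted p = 0.883). MT-ATP8 was at 23430, 28379, 21449, 26547 and 27907 scaled FPKM in deficient liver, against 17557, 24400, 18689, 24980 and 20750 in control liver (0.27 ± 0.14 SE, limma adjusted p = 0.670). The diets overlap in all 3. The 135-nt locus ranged from 10377 to 16654 scaled FPKM in deficient liver and from 10262 to 15151 in control liver (0.08 ± 0.16 SE, limma adjusted p = 0.937). Liver control 1 was the lowest of its group in 10 of the 14 long members. Its myocyte markers summed to 527 FPKM, against at least 63714 FPKM in breast, and a link with the low values was not tested. Without liver control 1 the median log2 change of the 14 was 0.11. Without liver control 4 and liver deficient 1 it was 0.25, with 0 calls in each case.

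The diet effects in both tissues were also compared with each other, in a fit over all 20 libraries. The liver effect minus the breast effect was below 0 for all 14 long members, with a median of -0.29 beside -0.05 over all genes, and 0 were called while 10.1% of 9147 genes were, 4.66% above and 5.42% below 0. At an unadjusted p under 0.05 it found 0 of the 14 and 2407 genes. The differences ran from -0.41 ± 0.22 (SE) for ND4L to -0.05 ± 0.24 for ND6. With the FPKM as deposited all 14 turned positive, with a median of 0.13 beside 0.30 over all genes. The diet effect on these genes was thus not shown to differ between the tissues.

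Liver was also set against breast on each diet, with all 20 libraries scaled together. On the deficient diet 5 of the 14 long members were called, 1 higher and 4 lower in liver, while 73.8% of 11216 genes tested were called, 37.4% higher and 36.4% lower. On the control diet 4 of 14 were called, 2 higher and 2 lower, while 70.1% of genes were, 35.8% higher and 34.3% lower. The median log2 difference of the 14 was -0.23 on the deficient diet and 0.03 on the control diet, beside 0.02 and 0.02 over all genes. MT-ND3, ND6 and the small rRNA were called on both diets.

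MT-ND3 was at 3749, 3709, 2865, 2930 and 2857 scaled FPKM in deficient liver, against 5509, 4856, 7141, 6702 and 4017 in deficient breast. On the control diet it was at 2755, 2957, 2979, 3180 and 2102 scaled FPKM in liver, against 3450, 3545, 3691, 3503 and 4361 in breast. All 5 liver libraries lay below all 5 breast libraries on each diet, as 29.0% and 28.6% of all genes tested did. In the FPKM as deposited this held on the control diet alone. The log2 difference was -0.79 ± 0.15 (SE, limma adjusted p = 9.55e-05) on the deficient diet and -0.42 ± 0.15 (SE, limma adjusted p = 0.0185) on the control diet. The call on the control diet ended without breast control 5 or without liver control 5, with limma adjusted p of up to 0.0642.

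ND6 went the other way. It was at 2609, 3529, 1971, 2610 and 2294 scaled FPKM in deficient liver, against 1719, 1761, 1263, 2632 and 1564 in deficient breast, where breast deficient 4 reached the liver range and 29.4% of all genes were higher in liver without overlap. On the control diet it was at 2011, 2333, 1674, 2644 and 2216 scaled FPKM in liver, against 1314, 1565, 1418, 1346 and 1421 in breast, with no overlap, as for 29.7% of all genes tested in this direction. In the FPKM as deposited the control groups overlap too. The log2 difference was 0.56 ± 0.17 (SE, limma adjusted p = 0.00682) on the deficient diet and 0.61 ± 0.17 (SE, limma adjusted p = 0.00394) on the control diet.

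The small rRNA was at 742, 754, 393, 619 and 330 scaled FPKM in deficient liver, against 640, 1248, 1107, 2164 and 953 in deficient breast. On the control diet it was at 440, 555, 467, 861 and 369 scaled FPKM in liver, against 981, 755, 961, 1178 and 1287 in breast. One library overlapped on each diet, breast deficient 1 and liver control 4. The log2 difference was -1.07 ± 0.30 (SE, limma adjusted p = 0.00318) on the deficient diet and -0.98 ± 0.30 (SE, limma adjusted p = 0.00648) on the control diet, the widest among the 14.

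The large rRNA was at 200, 236, 172, 247 and 163 scaled FPKM in deficient liver, against 251, 325, 278, 453 and 190 in deficient breast. It differed by -0.51 ± 0.22 (SE, limma adjusted p = 0.0402) on that diet, a call lost without any of 6 libraries, breast deficient 4 and liver deficient 3 among them, with limma adjusted p of up to 0.135. It was also lost without scaling, without a filter and without liver control 4 and liver deficient 1 together, at limma adjusted p = 0.128, 0.0503 and 0.0664. On the control diet it was at 150, 276, 141, 215 and 156 scaled FPKM in liver, against 277, 178, 223, 248 and 290 in breast, a difference of -0.40 ± 0.22 (SE, limma adjusted p = 0.109). The ranges overlap on both diets.

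MT-CYB was called lower in liver on the deficient diet alone. It was at 5019, 6071, 4631, 5315 and 6148 scaled FPKM in deficient liver, against 7925, 6511, 7616, 10598 and 5506 in deficient breast. The log2 difference was -0.46 ± 0.16 (SE, limma adjusted p = 0.0116), and on the control diet it was -0.14 ± 0.16 (SE, limma adjusted p = 0.444). MT-CO1 was higher in liver on the control diet, with 9193, 10447, 10660, 12282 and 9717 scaled FPKM in control liver, against 7348, 7723, 9384, 8635 and 8955 in control breast. The log2 difference was 0.31 ± 0.13 (SE, limma adjusted p = 0.0357) on the control diet and -0.05 ± 0.13 (SE, limma adjusted p = 0.721) on the deficient diet. The MT-CYB call ended without scaling and under quantile normalization, at limma adjusted p = 0.0824 and 0.136. The MT-CO1 call was lost without any of 5 libraries, liver control 4 and breast control 1 among them, with limma adjusted p of up to 0.0954. It was also lost without scaling, with upper-quartile scaling, without a filter and without liver control 4 and liver deficient 1 together, at limma adjusted p = 0.502, 0.214, 0.159 and 0.107. Each gene was called in 1 diet only. The test of the diet effects between the tissues, which is the test of a difference between the diets, called neither.

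The relative level within the library was also set against breast for MT-ND3, ND6 and MT-CO1. MT-ND3 made up 4.43% ± 0.504 of the FPKM of the 12 protein genes in deficient liver and 4.31% ± 0.568 in control liver, against 6.57% ± 1.02 in deficient breast and 5.99% ± 0.262 in control breast (SD, n = 5 each). The highest of the 10 liver libraries, at 5.12%, lay below the lowest of the 10 breast libraries, at 5.58%. ND6 made up 3.55% ± 0.472 in deficient liver and 3.35% ± 0.452 in control liver, against 2.08% ± 0.374 in deficient breast and 2.30% ± 0.232 in control breast, with 1 control liver library at 2.60% below the highest breast library at 2.66%. MT-CO1 made up 15.4% ± 0.681 in deficient liver and 16.1% ± 0.736 in control liver, against 13.7% ± 1.18 in deficient breast and 13.6% ± 0.921 in control breast. Its lowest liver library, at 14.8%, lay below the highest deficient breast library, at 15.5%.

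Ratios of single genes ran along with this. MT-ND3 was at 1.06 ± 0.139 times MT-ND4 in deficient liver and 1.02 ± 0.147 times in control liver, against 1.50 ± 0.214 times in deficient breast and 1.40 ± 0.164 times in control breast (SD, n = 5 each). ND6 was at 1.01 ± 0.134 times MT-ND5 in deficient liver and 0.968 ± 0.112 times in control liver, against 0.628 ± 0.105 times in deficient breast and 0.642 ± 0.0581 times in control breast. MT-CO1 was at 1.07 ± 0.0737 times COX2 in deficient liver and 1.07 ± 0.0416 times in control liver, against 0.905 ± 0.0783 times in deficient breast and 0.927 ± 0.0611 times in control breast. MT-ND3 and ND6, subunits of one complex, thus stood on opposite sides of the tissue comparison.

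**Figure D4:**
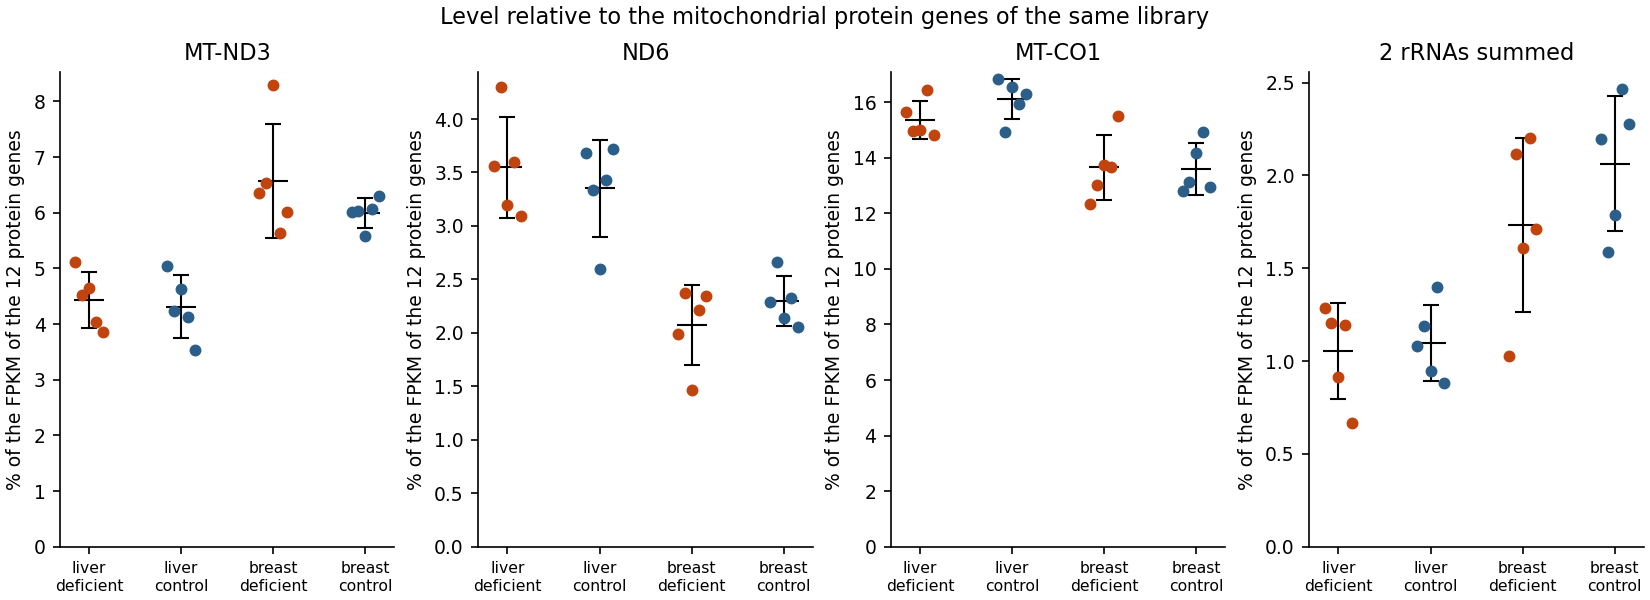
FPKM of MT-ND3, ND6, MT-CO1 and both rRNAs in percent of the summed FPKM of the 12 mitochondrial protein genes of the same library, with 5 libraries per group as points and the mean with SD as bars. MT-ND3 is at 3.53% to 5.12% in liver and 5.58% to 8.28% in breast, while ND6 is higher in liver.

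Nuclear genes that serve the mitochondrial genome were read in the same fits. The counts that follow for breast stand beside 28.0% of all genes called, 14.1% higher and 13.9% lower, with a median of 0.02. Counts without scaling or without a library come from other fits, which have their own share of all genes. They take calls in either direction together. In breast on the deficient diet, 24 of 27 nuclear subunits of complex I tested were higher and 0 lower, with NDUFB3 at 0.75, NDUFA8 at 0.69, NDUFS6 at 0.63 and NDUFB1 at 0.49 on the log2 scale (limma adjusted p between 0.00165 and 0.00855). The median was 0.49, beside 0.39 for the 7 mitochondrial subunits of complex I, of which 2 were called. Of the 4 subunits of complex II, which has no mitochondrial gene, 3 were higher, SDHB at 0.67, SDHD at 0.45 and SDHA at 0.67. Of complex III 6 of 7 nuclear subunits were higher, UQCR10 at 0.67, UQCR11 at 0.68, UQCRQ at 0.83 and UQCRFS1 at 0.79, with a median of 0.67 beside 0.53 for MT-CYB.

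In complex IV 5 of 9 nuclear subunits tested were higher and 1 was lower, with NDUFA4 at 0.71, COX7A2L at 0.57 and COX7C at 0.51 and COX8A at -0.63. Their median was 0.50, beside 0.44 for the 3 mitochondrial subunits, of which COX2 was called. Of complex V 5 of 11 nuclear subunits were higher, ATP5G2 at 0.48, ATP5F1 at 0.47, ATP5J at 0.59 and ATP5C1 at 0.61, with a median of 0.47 beside 0.41 for ATP6. Without scaling 3 of 27, 1 of 4, 3 of 7, 4 of 9 and 0 of 11 were called in either direction, in the order of the complexes. In that fit 322 of 10223 genes were higher and 3200 lower. In liver 0 of these nuclear genes were called, and the medians were 0.06, 0.07, 0.09, 0.12 and 0.07, beside 0.21 for the mitochondrial subunits of complex I, 0.25 for MT-CYB, 0.12 for those of complex IV and 0.19 for ATP6.

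**Figure D5:**
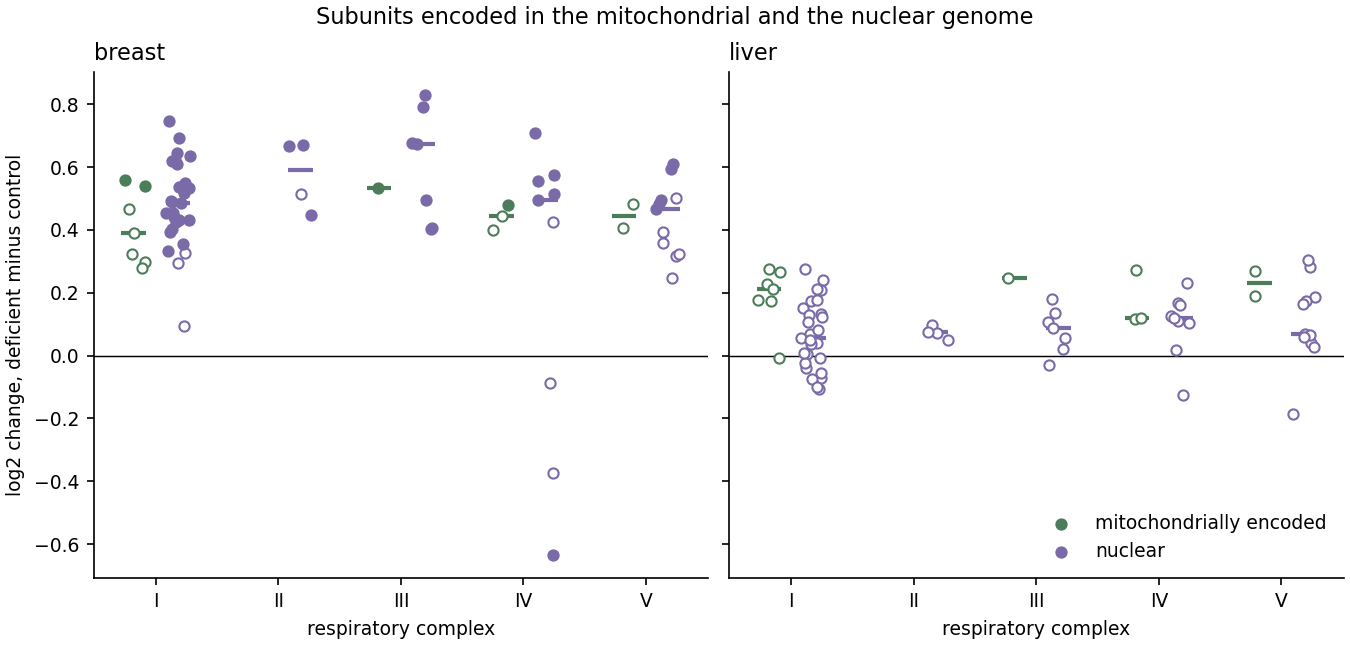
Log2 change, deficient minus control, of each subunit by respiratory complex, encoded in the mitochondrial genome (left in each pair, MT-ATP8 included) or the nuclear genome (right), with the median as a line; filled points passed a limma adjusted p under 0.05 and open ones did not. In breast most subunits of both origins lie above 0, with COX8A at -0.63 the lowest, and in liver no point is filled.

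Genes that handle mitochondrial RNA and its translation were tested as further lists in breast. Of 35 genes of mitochondrial RNA processing, stability and decay 16 were higher and 0 lower on the deficient diet, beside 14.1% of all genes higher, with a median of 0.34. They include MTO1, which modifies the wobble base of mitochondrial tRNAs (0.59), ANGEL2 (0.53), the pentatricopeptide protein PTCD3 of the mitochondrial ribosome (0.43) and the rRNA methyltransferase FTSJ2 (0.58). Of 12 translation factors 7 were higher and 0 lower, among them the initiation factors MTIF3 (0.62) and MTIF2 (0.47), the elongation factor GFM1 (0.46) and RMND1 (0.37). Their limma adjusted p lay between 0.00481 and 0.0205. Without scaling 2 and 0 genes of these lists were called in either direction. In that fit 322 of 10223 genes were higher and 3200 lower.

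Of 17 genes of mitochondrial transcription and replication 4 were higher and 0 lower in breast, the nuclease gene C20ORF72 (0.37), the single-strand binding protein SSBP1 (0.28), the transcription factor TFB2M (0.51) and the nuclease EXOG (0.35). That share, and the one for biogenesis regulators given next, lies below the 28.0% of all genes called in either direction. Of all genes 14.1% were higher, below the share of this list and above that of the biogenesis regulators. The mitochondrial RNA polymerase POLRMT and the packaging and transcription factor TFAM, named after their values were seen, were at 0.13 and -0.03 (limma adjusted p = 0.385 and 0.749). Of 12 regulators of mitochondrial biogenesis 1 was higher, the deacetylase SIRT3 (0.61, limma adjusted p = 0.0101). In liver 0 members of these 4 lists were called. Leaving out 1 library moved the counts to between 7 and 14 for RNA processing, with 7 without breast control 2 or 4, 8 without breast deficient 4 and 10 without breast control 3 or breast deficient 3, to between 4 and 7 for translation factors, lowest without breast control 1 or 4, and to between 12 and 24 for complex I, with 12 without breast control 2 or breast deficient 4 and 13 without breast control 1 or 4. The biogenesis count was 3 without breast deficient 5. Over all genes the calls in these fits lay between 1839, without breast control 2, and 3158, without breast deficient 5.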

How the data were processed

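The members and gene lists were chosen with earlier results of these data known. Per the file headers, the deposited files give FPKM per gene and per isoform in Cufflinks format, with coverage as a signal of read depth and the transcript length. Per the submitters' processing notes, the tools included Cuffdiff 2.1.1, Cufflinks 2.1.1, Bowtie 1.0.0 and TopHat2 2.0.9, with galGal4 as build. No read counts are given, so no count model was fitted. The interval in the authors' files held the authors' own FPKM in 15 of 280 values of the long members. It was used for the tRNA loci, and for the long members only to describe its upper bound. Each library was divided by a size factor, the median of its ratios to per-gene geometric means, using genes detected throughout. Factors were set within a tissue for diet and over 20 libraries otherwise. Genes whose scaled FPKM averaged 1 or more, with no failed estimate, were tested on log2(scaled FPKM + 1), two-sided, with limma 3.58.1 in R 4.3.3 with a mean-variance trend. The 4 groups entered without covariates. Of the 37 members, 16 passed in breast and 18 in liver, and the 2 tRNA loci passing in liver alone did so through 3 libraries. Every member that passed could be named. Called members, the rRNAs and the highest short features are given per library, and from each list up to 4 called genes by p. Where labels do not separate birds, p-values measure the spread between libraries. The procedure was tested on simulated data. Alternatives were other scalings, pseudocount, filters, variance models, isoform sums, single libraries left out and a replicate block, and another scaling and a block by diet and number were added after the data were seen.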

Additional observations from a re-analysis of the deposited data

Results flagged for a closer look

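In 79 groups of 5 libraries, 7 held a library whose gap to the nearest other one was large against the range of the group. Chance gives about 1 in 20 for independent groups with a normal spread. These groups share their libraries, so the count cannot be set against that rate. MT-CO3 was at 18637 scaled FPKM in breast deficient 4 and between 10822 and 12795 in the other deficient breast libraries. The 71-nt tRNA locus was at 750425 scaled FPKM in liver control 4 and at 0 in the other control liver libraries. The 76-nt tRNA locus was at 157331 scaled FPKM in liver deficient 1 and 37617 in liver control 3, and at 0 in the other libraries of both groups. With 1 library above 0 in a group the gap is the whole range, so the flags of both loci were fixed in advance. The mitochondrial share of the FPKM sum was 36.1% in liver deficient 1 and 63.1% in liver control 4, against at most 18.9% and 22.1% in the rest of those groups. Both shares include the tRNA values just given for these libraries. Among features of at least 200 nt the share was lowest in liver deficient 3, at 12.2%, beside 13.8% to 14.4% in the other deficient liver libraries.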

How the results depend on the processing

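In the breast diet comparison the 4 calls among the 14 long members fell to 0 without scaling, with quantile normalization, without a filter or with a replicate block, and to 1 with upper-quartile scaling, and leaving out 1 library gave 0 to 6. Over all genes the 2853 calls became 2076 with the replicate block and 1839 to 3158 without 1 library. Within a tissue that block joins a deficient and a control library by number, and these come from different birds. Among the 14 long members, the liver diet comparison and the difference of the diet effects stayed at 0 calls when any 1 library was left out. Over all genes those fits called 0 to 11 genes in liver, with 11 without liver control 3. For the difference of the diet effects they called 490 to 1273 genes. On the deficient diet the tissue counts, in either direction, were 3 without scaling, 8 with array weights and 4 to 8 without 1 library. On the control diet they were 3 to 4 without 1 library. In the fits of the Results, with all libraries, 73.8% of all genes were called on the deficient and 70.1% on the control diet. For the other fits on the deficient diet, and those without 1 library on the control diet, the share of all genes is not given here. The member counts of those fits cannot be set against it. Without scaling 7760 of 11234 genes were called on the control diet, beside 5 of the 14 members. In breast the log2 change of the small rRNA was -0.20 without scaling and -0.083 with quantile normalization, and between -0.098 and 0.33 without 1 library, and that of the large rRNA was -0.093 without scaling. In liver the small rRNA lay between -0.038 and 0.27 without 1 library, and the 135-nt locus at -0.066 with quantile normalization and between -0.0020 and 0.17 without 1 library. The cause of these shifts was not tested.

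For the lists in breast the counts take calls in either direction. Without scaling they were 2 for RNA processing, 0 for translation factors, 3 for complex I, 1 for complex II, 3 for complex III and 0 for complex V. In that fit 322 of 10223 genes were higher and 3200 lower. The replicate block gave 2 for transcription and 8 for RNA processing, in a fit where 981 of 10182 genes were higher and 1095 lower. Upper-quartile scaling gave 2 for transcription, 4 for translation factors and 2 for biogenesis. There 986 of 10193 genes were higher and 1715 lower. Biogenesis was also 2 with quantile normalization, array weights or a scaling from genes with a mean FPKM of at least 1. That scaling was added after the data were seen. Biogenesis was 4 without a filter, and complex I was 15 with quantile normalization. Of all genes, 1425 of 10223 were higher and 1327 lower with quantile normalization, and 1263 of 14741 higher and 1520 lower without a filter. With array weights 1551 of 10182 were higher and 1464 lower, and with the added scaling 1314 of 10182 higher and 1491 lower. Without 1 library the counts were 3 to 4 for transcription, 7 to 14 for RNA processing, 4 to 7 for translation factors, 1 to 3 for biogenesis and 12 to 24 for complex I. They were 3 to 4 for complex II, 4 to 7 for III, 5 to 7 for IV and 4 to 6 for V, and 0 for every list in liver. The median mitochondrial share was 12.1% over features of at least 200 nt and 8.81% of assigned bases in control breast, 12.4% and 9.50% in deficient breast, and 10.2% of bases in deficient liver. From coverage, MT-ND3 made up 5.31% in control breast, beside 6.15% in deficient breast, and MT-ND5 made up 3.39% in deficient liver. The labels do not say that one number marks one bird, so the numbers were not taken as pairs. Of the pairs by number, 1 of 10 within a tissue and 5 of 10 across tissues correlated above 0.1. Across tissues 8 of 10 libraries correlated best with their own number, and within a tissue 0 of 10. The correlations by number across tissues lay between 0.011 and 0.21. Whether a number marks a bird within a diet was not tested. A replicate block by diet and number, added after the data were seen, left the counts between the tissues at 5 and 4 and the difference of the diet effects at 0, and every called gene kept its call, with limma adjusted p of up to 0.0413.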

Other observations

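Between the tissues the nuclear subunits of the respiratory chain were read in the same fits. On the deficient diet 22 of 27 nuclear subunits of complex I were lower in liver than in breast and 0 higher, beside 73.8% of all genes called and 36.4% lower, with a median log2 difference of -0.52, set against -0.13 for the 7 mitochondrial subunits. On the control diet 8 were lower and 2 higher, beside 70.1% of all genes called, with a median of -0.07, set against 0.13 for the mitochondrial subunits. For complex IV 6 of 9 were lower and 3 higher in liver on the deficient diet, and 0 lower and 3 higher on the control diet. In the test of the difference between the diet effects 4 of 27 nuclear subunits of complex I were called, all below 0, beside 10.1% of all genes, and 0 of the 7 mitochondrial ones.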
